A study of Homo sapiens with 6 samples.

Results

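The 10 genes described here encode the enzymes that make serine and pass its carbon into the folate cycle, together with PCK2. They were taken from the deposited expression table by gene name, and all 10 were found among its 58735 genes. The table came from AGS, an established cell line from a human gastric adenocarcinoma, which the labels give as wild type. The cells were transfected with Lipofectamine 2000 and either a control siRNA (siNC) or an siRNA against RBM8A (siRBM8A), and polyadenylated RNA was taken 48 h later from 3 biological replicates per group. The RBM8A protein, Y14, is part of the exon junction complex that marks spliced mRNA. The study rests on 1 cell line, and the siRNA sequences were not used here.

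Cells make serine from the glycolytic intermediate 3-phosphoglycerate in a short chain of reactions catalysed by PHGDH, PSAT1 and PSPH. Serine hydroxymethyltransferases (SHMT1 in the cytosol, SHMT2 in mitochondria) then split serine into glycine and a carbon unit carried by folate. In mitochondria MTHFD2 oxidises that unit, after which MTHFD1L releases it as formate or ALDH1L2 oxidises it to carbon dioxide. In the cytosol the trifunctional enzyme MTHFD1 takes up the formate for purine, thymidylate and methionine synthesis. PCK2 is the mitochondrial phosphoenolpyruvate carboxykinase, which can feed carbon from the citric acid cycle back towards 3-phosphoglycerate. Several of these genes are known targets of ATF4, the transcription factor of the integrated stress response.

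Each library held 14838527 to 16561306 fragments in genes. Levels are in FPKM, fragments per kilobase of exon with a scaling per library. RBM8A itself was at 15.3, 13.2 and 14.8 FPKM in the siNC libraries. In the siRBM8A libraries it was at 3.25, 2.23 and 3.38 FPKM, so the groups did not overlap. On the log2 scale it fell by 1.97 (SE 0.142, adjusted p = 0.00544 by limma). Exons on the opposite strand cover 25% of the RBM8A exon bases. All 5 epithelial markers (EPCAM, KRT8, KRT18, KRT19, CLDN4) were high, with summed levels of 1678 to 2146 FPKM in siNC and 1650 to 2299 FPKM in siRBM8A. Of 5 blood, stromal and endothelial markers, 4 stayed under 1 FPKM in every library, PTPRC was listed at 0 throughout, and COL1A1 was the exception, the 5 summing to 3.48 to 4.67 FPKM in siNC. The replicate 2 libraries stood apart. Between siRBM8A replicates 1 and 2 the chi-square per degree of freedom was 54.6, against 7.80 between replicates 1 and 3. In siRBM8A replicate 2 genes with over 58.4% G and C lay 0.74 above genes with under 41.3% on the log2 scale (median deviations from the gene means), and in siNC replicate 2 it lay 0.24 above. The same difference was -0.28 in siRBM8A replicate 1, 0.05 in siRBM8A replicate 3, -0.46 in siNC replicate 1 and -0.28 in siNC replicate 3. Called and nearly called members are therefore also given without these libraries.

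The pathway did not move as a block. PCK2 rose, MTHFD1 fell, PSAT1 was higher in every siRBM8A library without reaching the threshold, 5 others showed small differences, and PHGDH and ALDH1L2 were at or near the detection floor in both groups. Of the 8 members with a mean of at least 1 FPKM, the minimum for testing, 1 was called upward and 1 downward at an adjusted p under 0.05, beside a background of 5.59% of all 12678 tested genes called. The upward calls made up 2.41% of the tested genes and the downward calls 3.19%. The groups did not overlap for 3 of the 8 members, PSAT1, MTHFD1 and PCK2, against a background of 31.3% of all tested genes (14.8% with siRBM8A higher), so this share is near the background. The median log2 fold change was 0.12 over the 8 tested members and -0.01 over all tested genes. It was above 0 for 7 of the 8, all but MTHFD1, although PSPH, SHMT1 and SHMT2 turned sign in some alternatives. FPKM are scaled per library, so a change in RNA per cell cannot be told apart from a change in the rest of the library. The divisor was not exactly the sum of fragments in genes. It ran from 0.972 times that sum in siNC replicate 2 to 1.05 times in siRBM8A replicate 1.

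**Figure D1:**
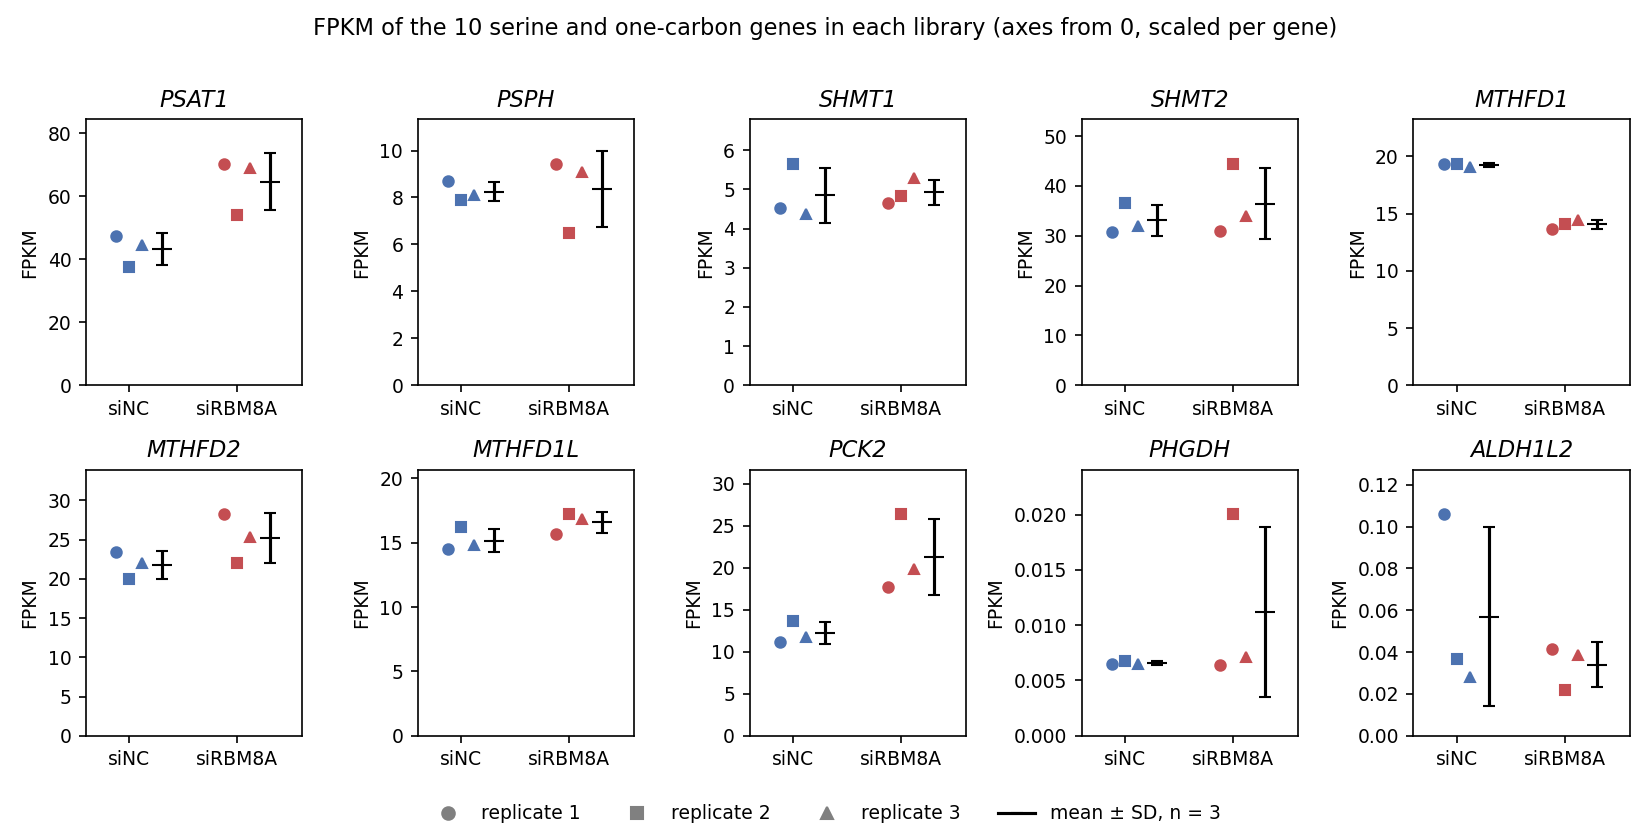
FPKM of the 10 genes in each of the 6 libraries, with 1 panel per gene and a linear axis from 0. Points are libraries (blue siNC, red siRBM8A, shape by replicate number) and bars are mean ± SD, n = 3. PSAT1, MTHFD1 and PCK2 separate the groups, whereas PHGDH and ALDH1L2 stay at or below 0.106 FPKM in every library.

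Because serine genes are known targets of ATF4, which binds TGATGNAA elements, and of MYC, which binds CACGTG, these letters were searched on both strands of the 300-base RefSeq promoter windows (GRCh38.p14) available for 7 of the 10 genes. The upstream 150 bases are shown for PHGDH, the gene at the floor, for the members whose groups separated, and for MTHFD1L, which held both motifs. The order is PHGDH at chr1:119711784-119711933, PSAT1 at chr9:78296975-78297124, PCK2 at chr14:24094161-24094310, MTHFD1 at chr14:64388203-64388352 and MTHFD1L at chr6:150866297-150866446, all on the plus strand, 5′ to 3′, with motif matches in capitals.
PHGDH: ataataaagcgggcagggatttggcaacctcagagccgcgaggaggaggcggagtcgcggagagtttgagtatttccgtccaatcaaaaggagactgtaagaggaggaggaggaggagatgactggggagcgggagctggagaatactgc
PSAT1: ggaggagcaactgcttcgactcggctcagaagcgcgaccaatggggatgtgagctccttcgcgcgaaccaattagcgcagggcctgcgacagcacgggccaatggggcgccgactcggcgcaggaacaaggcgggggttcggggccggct
PCK2: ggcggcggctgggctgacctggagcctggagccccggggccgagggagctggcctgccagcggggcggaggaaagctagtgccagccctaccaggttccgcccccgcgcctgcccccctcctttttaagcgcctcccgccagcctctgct
MTHFD1: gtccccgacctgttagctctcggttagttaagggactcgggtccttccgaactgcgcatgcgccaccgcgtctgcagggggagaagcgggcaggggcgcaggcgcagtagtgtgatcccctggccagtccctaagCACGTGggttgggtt
MTHFD1L: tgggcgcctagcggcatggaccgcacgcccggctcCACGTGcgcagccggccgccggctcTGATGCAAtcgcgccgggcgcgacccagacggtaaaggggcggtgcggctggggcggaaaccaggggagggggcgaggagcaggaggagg
The 7 genes have 10 windows, since MTHFD1L has several starts, and 3 of its windows overlap and hold the same matches. By gene, TGATGNAA was present in 1 of the 7, MTHFD1L, and in 4.46% of all 27305 genes with a window. CACGTG was present in MTHFD1 and MTHFD1L, and in 8.77% of all genes with a window. By window, the shares over all 35116 windows were 3.62% and 7.26%. Counted from the RefSeq start, the MTHFD1 match began at -15. From the start used for the MTHFD1L window shown, the matches began at -115 (CACGTG) and -90 (TGATGNAA). The 2 motifs did not overlap. The PSAT1, PCK2 and PHGDH windows held neither string, which says only that these letters are not there.

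PHGDH, the dehydrogenase that commits 3-phosphoglycerate to serine, was almost unread in this line. It was covered by 1 fragment in each siNC library and by 1, 3 and 1 fragments in siRBM8A replicates 1, 2 and 3, on 9217 exon bases. A floor of 3 fragments corresponded to at most 0.0214 FPKM for this gene, so both groups were at or under the floor and no fold is given. The floor covers counting error only. No annotated exon of another gene overlaps its exons. PHGDH lies on chromosome 1 from 119648411 to 119744226 on the plus strand of GRCh38, as do all loci below in that build.

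PSAT1, the aminotransferase of the next reaction, had the highest FPKM of the members, on 2188 exon bases. In siNC it had 1722, 1315 and 1634 fragments, fewer than MTHFD1 (3021, 2888 and 2988 on 9377 exon bases). PSAT1 levels were 47.3, 37.7 and 44.7 FPKM in siNC and 70.4, 54.2 and 69.1 FPKM in siRBM8A. Every siRBM8A library lay above every siNC library, and replicate 2 was the lowest of each group. The means were 43.2 ± 4.98 and 64.6 ± 9.03 FPKM (SD, n = 3), a log2 difference of 0.56 (SE 0.143) whose adjusted p of 0.0663 by limma did not pass the threshold. With the replicate number as a block the adjusted p was 0.00181, and the differences within the pairs were 0.56, 0.51 and 0.62 on the log2 scale. PSAT1 was called on leaving out siRBM8A replicate 2 (0.68 on the log2 scale, adjusted p = 0.0360, with 4.91% of all genes called), and without both replicate 2 libraries the values were 0.59 and 0.0159. The adjusted p of PSAT1 ran up to 0.221 over the alternatives. PSAT1 lies on chromosome 9 from 78297143 to 78330093 on the plus strand.

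PSPH, the phosphatase that releases free serine, did not separate the groups. Its levels were 8.69, 7.90 and 8.12 FPKM in siNC and 9.45, 6.49 and 9.10 FPKM in siRBM8A, with replicate 2 the lowest of both groups. The difference on the log2 scale was 0.00247 (SE 0.144, adjusted p = 0.994 by limma), and its sign turned in several alternatives. Its pseudogene PSPHP1 was listed at 5.67 to 11 FPKM, a level like that of PSPH, so reads may be shared between the pair and the PSPH value is uncertain. PSPH lies on chromosome 7 from 56011051 to 56051604 on the minus strand. Over all 14 annotated pseudogenes named after a member, 10 were listed at 0 in every library, and the highest value other than PSPHP1 was 0.137 FPKM.

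The serine hydroxymethyltransferases were not called by limma on FPKM. Cytosolic SHMT1 was at 4.53, 5.66 and 4.37 FPKM in siNC and at 4.65, 4.84 and 5.28 FPKM in siRBM8A. The log2 difference was 0.02 with SE 0.116 (adjusted p = 0.921 by limma). Mitochondrial SHMT2 was several times more abundant per length, at 30.8, 36.6 and 31.9 FPKM in siNC and 31.0, 44.5 and 33.9 FPKM in siRBM8A. The groups of both genes overlapped, and replicate 2 was the highest SHMT2 library of each group. SHMT2 differed by 0.12 on the log2 scale (SE 0.153, adjusted p = 0.652 by limma). Without siRBM8A replicate 2 it was -0.0260, the 1 alternative of 17 that turned its sign. Without both replicate 2 libraries it was 0.0455. Its differences within the pairs were 0.01, 0.28 and 0.09, and voom on the recovered fragments with the replicate block called it (0.16 on the log2 scale, adjusted p = 0.0292), in a fit that called 48.5% of all genes. SHMT1 lies on chromosome 17 (18327860 to 18363563, minus strand) and SHMT2 on chromosome 12 (57229327 to 57234935, plus strand).

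Among the mitochondrial folate enzymes, MTHFD2 and MTHFD1L showed small upward differences that were not called, and ALDH1L2 was barely detected. MTHFD2, a dehydrogenase and cyclohydrolase, was at 23.4, 19.9 and 22.0 FPKM in siNC and 28.3, 22.0 and 25.4 FPKM in siRBM8A. Each siRBM8A library was above the siNC library of the same number, by 0.26, 0.13 and 0.20 on the log2 scale, although the groups overlapped. The mean difference was 0.20 (SE 0.122, adjusted p = 0.353 by limma), and the adjusted p was 0.0269 with the replicate block. With the GC correction the log2 fold change grew to 0.32 (adjusted p = 0.00303 by limma). Exons on the opposite strand cover 33.2% of its exon bases, which makes its value uncertain.

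MTHFD1L, which releases formate from mitochondria, was at 14.5, 16.2 and 14.8 FPKM in siNC and 15.7, 17.2 and 16.8 FPKM in siRBM8A. The groups overlapped (log2 fold change 0.12, SE 0.0934, adjusted p = 0.452, limma). Each siRBM8A library was above the siNC library of its number, by 0.11, 0.08 and 0.17 on the log2 scale. The only alternative that called it was voom on the recovered fragments with the replicate block (adjusted p = 0.0407), which called 48.5% of all genes. ALDH1L2, which oxidises the folate-bound unit to carbon dioxide, had 15, 5 and 4 fragments in siNC and 6, 3 and 5 in siRBM8A, or 0.0281 to 0.106 FPKM in siNC and 0.0217 to 0.0415 FPKM in siRBM8A. It was too low for a test. These genes lie on chromosome 2 (MTHFD2, 74198562 to 74217565, plus strand), chromosome 6 (MTHFD1L, 150865549 to 151101887, plus strand) and chromosome 12 (ALDH1L2, 105019784 to 105084577, minus strand).

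MTHFD1, the cytosolic enzyme that attaches formate to folate and reduces the product, was the called member that fell. Its levels were 19.4, 19.3 and 19.1 FPKM in siNC and 13.7, 14.1 and 14.4 FPKM in siRBM8A. The libraries of each group lay close together, replicate 2 included, and the groups were far apart relative to that spread. The siRBM8A mean was 73.0% of the siNC mean (14.1 ± 0.362 against 19.2 ± 0.163 FPKM, SD, n = 3), or -0.43 on the log2 scale (SE 0.0832, adjusted p = 0.0371 by limma). The log2 fold change stayed between -0.45 and -0.41 over the 17 alternatives, of which 12 called it. MTHFD1 was called without siRBM8A replicate 2 (-0.43, adjusted p = 0.0478 by limma, with 4.91% of all genes called). Without both replicate 2 libraries the values were -0.43 and 0.0281, with 14.2% of all genes called. Leaving out siNC replicate 1, 2 or 3 ended the call (adjusted p = 0.156, 0.0908 and 0.194), as did leaving out siRBM8A replicate 1 (0.0706) or 3 (0.160), and in these the same limma test called 2 to 394 genes in all. MTHFD1 lies on chromosome 14 from 64388031 to 64463457 on the plus strand, and exons on the other strand cover 11% of its exon bases.

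PCK2 was the called member that rose. Its levels were 11.2, 13.7 and 11.7 FPKM in siNC and 17.7, 26.4 and 19.8 FPKM in siRBM8A. Every siRBM8A library was above every siNC library, and replicate 2 was the highest of each group. The means were 12.2 ± 1.32 and 21.3 ± 4.53 FPKM (SD, n = 3), a log2 difference of 0.74 (SE 0.161, adjusted p = 0.0482 by limma), just under the threshold. The call was lost without siNC replicates 1, 2 or 3 (adjusted p = 0.173, 0.0792 and 0.199), without siRBM8A replicate 3 (0.160), without the filter on low values (0.119) and without the variance trend (0.0522). Its longest transcript is 61.6% G and C, above the limit of 58.4% used for the genes rich in G and C. With the GC correction the log2 fold change was 0.61 (adjusted p = 0.000554), and without both replicate 2 libraries it was 0.66 (adjusted p = 0.0182). PCK2 lies on chromosome 14 from 24094053 to 24110598 on the plus strand.

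With the replicate block, 3 of the 8 tested members were called upward (PSAT1, MTHFD2, PCK2) and 1 downward (MTHFD1). That fit called 40.2% of all tested genes (18.9% upward and 21.3% downward), so 4 of 8 was near its background. The GC correction called the same 4 members, among 31.9% of all genes (15.7% upward and 16.2% downward). With both together 3 members were called upward and 1 downward, beside 19.9% and 20.7% of all genes (40.7% in all). Voom on the recovered fragments with the block called 5 upward (PSAT1, SHMT2, MTHFD2, MTHFD1L and PCK2) and 1 downward (MTHFD1), beside 25.4% and 23.1% of all genes. Without both replicate 2 libraries 2 were called upward and 1 downward, beside 6.41% and 7.77% of all genes (14.2% in all).

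**Figure D2:**
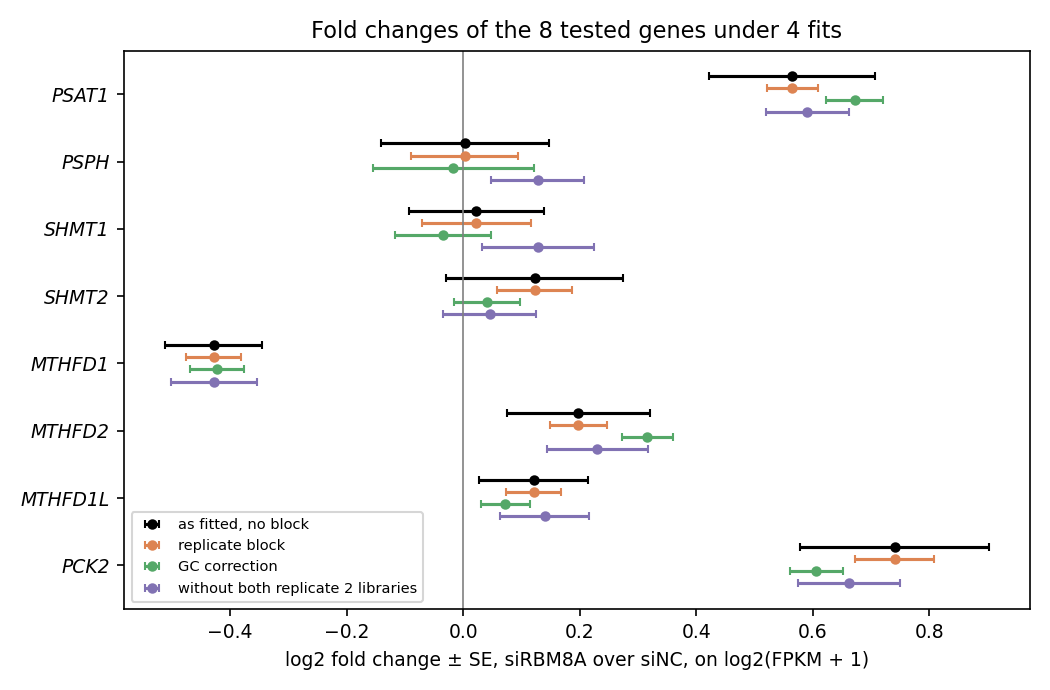
Log2 fold changes ± SE of the 8 tested genes, siRBM8A over siNC on the log2(FPKM + 1) scale, under 4 fits marked by colour. MTHFD1 stays near -0.43 in all 4, PSAT1 and PCK2 lie between 0.56 and 0.74, and PSPH, SHMT1 and SHMT2 lie near 0.

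In siNC the order of levels per exon length was PSAT1, SHMT2, MTHFD2, MTHFD1, MTHFD1L, PCK2, PSPH, SHMT1, ALDH1L2 and PHGDH, and no neighbouring pair overlapped over the 3 libraries. FPKM divide by all annotated exon bases of a gene, so an order between genes depends on that length and differs from the order in fragments. In siRBM8A the mean of PCK2 (21.3 FPKM) was above those of MTHFD1L (16.6 FPKM) and MTHFD1 (14.1 FPKM), which it followed in siNC.

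Ratios of FPKM within a library remove any factor common to both genes, and 5 were formed after the values had been seen. A difference between libraries that depends on G and C content is not common to genes of unlike content. The ratio of PCK2 to SHMT2 was 0.363, 0.375 and 0.368 in siNC and 0.572, 0.593 and 0.585 in siRBM8A, a 1.58-fold difference, and the libraries of each group lay close together. The ratio of MTHFD1 to MTHFD1L, the formate-binding and the formate-releasing enzyme, was 1.34, 1.19 and 1.29 in siNC and 0.872, 0.818 and 0.856 in siRBM8A. Per kilobase of all annotated exons, MTHFD1 was thus above MTHFD1L in every control library and below it in every knockdown library. In fragments MTHFD1 stayed above MTHFD1L in siRBM8A too (2178, 2144 and 2052 against 1338, 1404 and 1284). The crossing therefore depends on the exon lengths used, 9377 and 5021 bases, whereas the fall of the ratio does not.

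The ratio of PSAT1 to PSPH was 5.45, 4.77 and 5.50 in siNC and 7.45, 8.34 and 7.60 in siRBM8A. The longest transcripts of PSAT1 and PSPH are 42.3% and 49.8% G and C, and replicate 2 was the extreme library of this ratio in each group. Replicate 2 was also the highest library of each group for PCK2 to SHMT2, and the lowest for MTHFD1 to MTHFD1L and PSAT1 to MTHFD2. For MTHFD1 to SHMT1 it was the lowest in siNC alone. The ratio of PSAT1 to MTHFD2 differed by 1.29-fold and that of MTHFD1 to SHMT1 by 0.712-fold, both without overlap. The values of PSPH and MTHFD2 are uncertain, as given above, and so are the ratios over them. Each ratio has a gene whose groups were already known to separate, so the 5 are a description, with no test. A ratio shows unequal change of its members and not which of them moved.

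**Figure D3:**
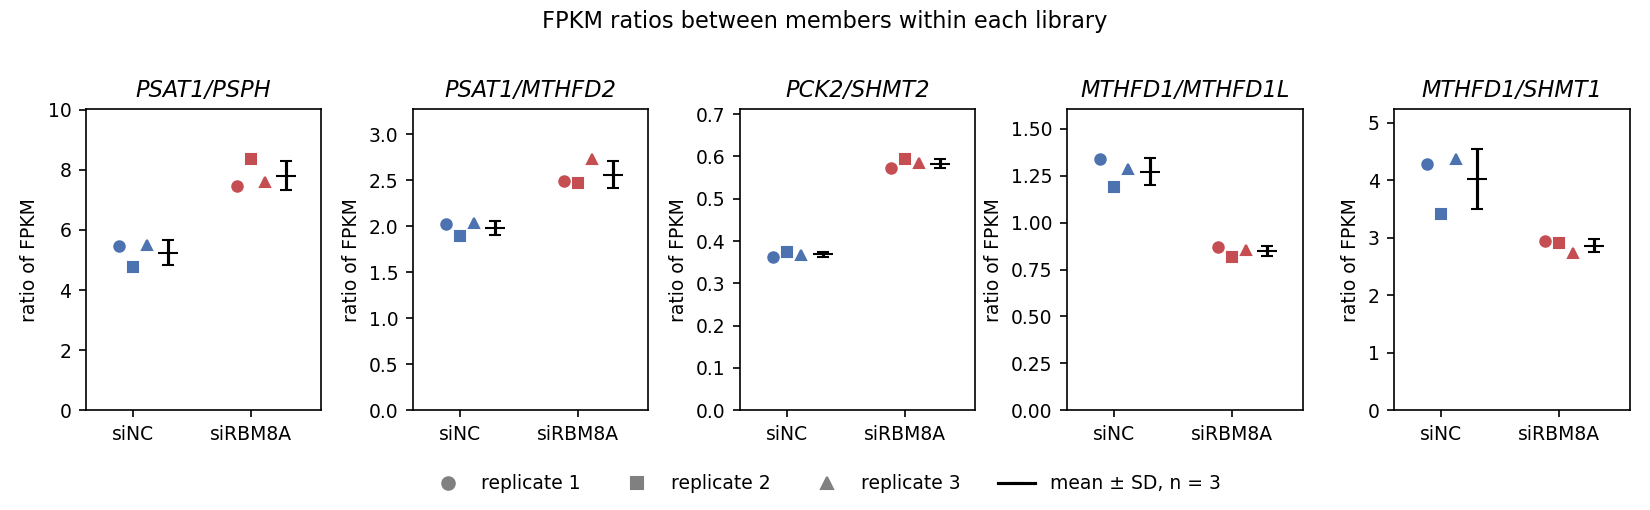
Ratios of FPKM between members within each library, on linear axes from 0. Points are libraries (shape by replicate number) and bars are mean ± SD, n = 3. In all 5 panels the groups do not overlap, and the PCK2/SHMT2 ratio goes from 0.369 to 0.583.

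The surrounding pathway was followed through 63 further genes in 6 lists, of which 46 were tested, 2 were called upward and 1 downward, with a median log2 fold change of -0.02. Over all tested genes 2.41% were called upward and 3.19% downward, so 3 of 46 was near the background. An unadjusted p under 0.05 was reached by 14 of the 46 and by 26.3% of all tested genes, the background for the list counts below. Among 14 other folate genes, 9 were tested and SLC46A1, the proton-coupled folate transporter, was the only call. It fell from 8.44, 8.38 and 7.55 FPKM to 3.81, 4.78 and 4.61 FPKM (-0.76 on the log2 scale, SE 0.109, adjusted p = 0.0179 by limma), with exons on the opposite strand over 61.5% of its exon bases. Of 13 genes of glycine cleavage, serine transport and serine use, 10 were tested and GCAT alone was called. An unadjusted p under 0.05 by limma was reached by 4. Besides GCAT these were PTDSS1 (0.21 on the log2 scale), SFXN1 (-0.38) and DLD (-0.72, adjusted p = 0.0664 by limma), named outside the rule. GCAT encodes a mitochondrial enzyme of threonine breakdown that forms glycine. It rose from 2.57, 3.34 and 2.08 FPKM to 4.70, 6.30 and 5.19 FPKM (log2 fold change 0.81, SE 0.160, adjusted p = 0.0379, limma).

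The call of SLC46A1 was lost without any 1 of the siNC replicates and without siRBM8A replicate 3, and that of GCAT without any 1 library or without the filter on low values. The highest adjusted p were 0.110 and 0.168.

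Of 11 genes of the methionine cycle and transsulfuration 6 were tested. Limma called 0 of them, and 2 had an unadjusted p under 0.05. AHCY, which hydrolyses S-adenosylhomocysteine, was at 75.1, 96.2 and 80.6 FPKM in siNC and 110, 161 and 123 FPKM in siRBM8A (0.63 on the log2 scale, adjusted p = 0.0741, and 0.00198 with the replicate block). Of 6 genes of purine synthesis 5 were tested and 0 were called, with 0 at an unadjusted p under 0.05. PAICS, which had the smallest p of that list, had a log2 fold change of -0.31 (adjusted p = 0.288, and 0.00749 with the block). Of 8 genes of phosphoenolpyruvate and amino acid synthesis 6 were tested and 0 were called, with 3 at an unadjusted p under 0.05. PYCR1, the last enzyme of proline synthesis, went from 20.4 ± 4.36 to 34.1 ± 7.23 FPKM (SD, n = 3, log2 fold change 0.72, adjusted p = 0.0787, and 0.00149 with the block).

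Among 11 genes of ATF4 and the integrated stress response, 10 were tested and DDIT3, the transcription factor CHOP, was called. It rose from 4.23, 4.17 and 5.22 FPKM to 12.3, 13.5 and 13.0 FPKM (log2 fold change 1.34, SE 0.108, adjusted p = 0.00709, limma). The call was lost without siNC replicate 1 (adjusted p = 0.0504) and without siRBM8A replicate 3 (0.0721). Exons on the opposite strand cover 31.6% of its exon bases. The ATF4 transcript, named outside the rule, was at 120, 137 and 121 FPKM in siNC. In siRBM8A it was at 147, 176 and 156 FPKM, without overlap (log2 fold change 0.34, adjusted p = 0.114, limma, and 0.00434 with the block). The list did not move in 1 direction, and its other tested genes are named here outside the rule. Of its 10 tested genes, 5 had a log2 fold change above 0, and 4 had an unadjusted p under 0.05 by limma. Those above 0 were ATF4, DDIT3, CHAC1 (0.53), SESN2 (0.29) and PPP1R15A (0.47). Those below 0 were ATF5 and the kinase genes EIF2AK1, EIF2AK2, EIF2AK3 and EIF2AK4. With the replicate block 5 were called upward and 1 downward, beside 18.9% and 21.3% of all tested genes. EIF2AK2, also named outside the rule, was lower (log2 fold change -0.67, adjusted p = 0.195, limma, and 0.00607 with the block).

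Some low values in these lists were uncertain for a reason that does not touch PHGDH. ASNS, ADSL and SLC25A32, named after their values were seen, were at or under 0.965, 0.660 and 0.196 FPKM in every library, and exons of another gene on the same strand cover 44.6%, 18.9% and 69.7% of their exon bases. How the authors counted fragments shared by overlapping genes is unknown here. For PHGDH and ALDH1L2 the same-strand overlap was 0%.

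**Figure D4:**
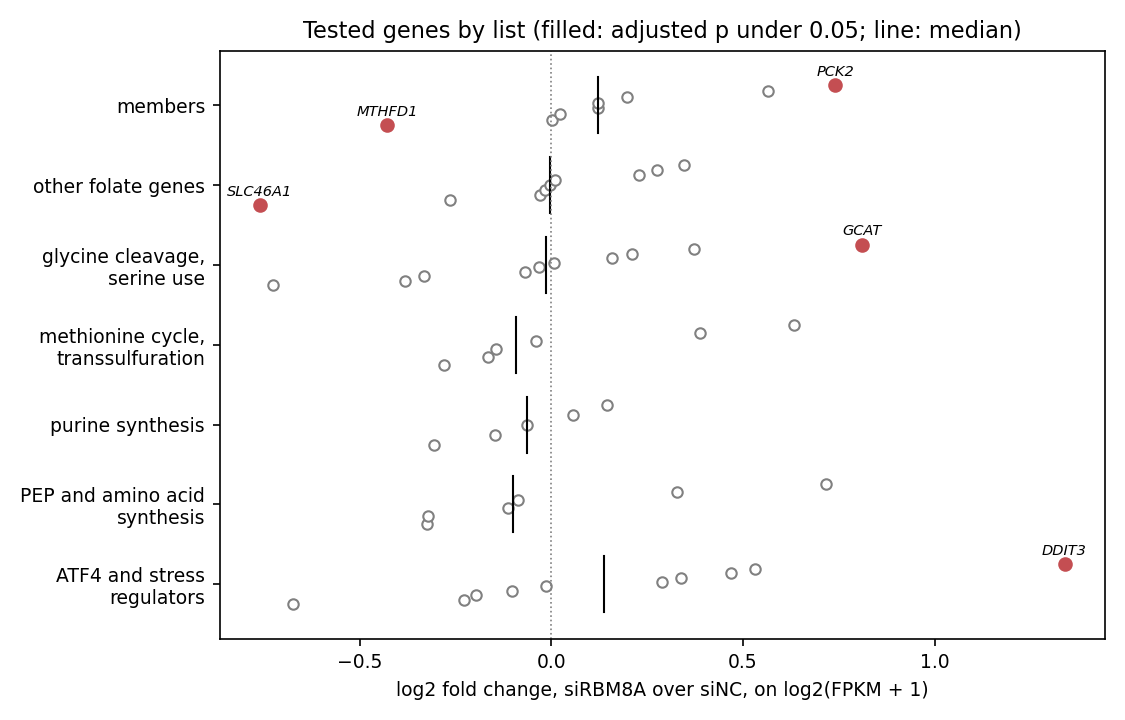
Log2 fold changes (siRBM8A over siNC, on log2(FPKM + 1)) of the tested members and of the tested genes in 6 related lists, 1 point per gene. Filled points had an adjusted p under 0.05 and are named, open points did not, and vertical lines are medians, 0.12 for the members.

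The member with the smallest adjusted p was MTHFD1, and the 3 tested genes with the most similar pattern over the 6 libraries were MLKL, TCF7 and FAM222A. Their Euclidean distances to MTHFD1, in log2(FPKM + 1) relative to the siNC mean, were 0.0443, 0.0494 and 0.0564. MLKL was at 7.35, 7.23 and 7.23 FPKM in siNC and 5.13, 5.22 and 5.19 FPKM in siRBM8A (log2 fold change -0.42).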

How the data were processed

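Polyadenylated RNA of 6 AGS cultures was sequenced. The authors deposited 1 table of FPKM for 58735 genes. HISAT2, StringTie and GRCh38 appear in the submitters' processing notes, without versions. For strand setting and filters no source used here gives a value. All gene identifiers matched GENCODE 29 (Ensembl 94), which gave exon lengths and overlaps. Multiplying FPKM by exon length gave whole numbers of fragments for 100% of values (tolerance 0.001) once scaled per library, and so the fragments behind each value.

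Groups were compared with limma 3.58.1 (R 4.3.3) using log2(FPKM + 1) and a variance trend. The 12678 genes whose mean reached 1 FPKM were tested. P-values were two-sided and adjusted by Benjamini-Hochberg over all of them, with calls under 0.05. Fold changes on this scale understate those of low genes. Promoter windows were RefSeq's. The test was run on simulated data with independent noise for each gene and library. Those data lack the shift by G and C content and the deviations shared by same-numbered libraries, so they cannot show how the test handles these. Python 3.11.15 with numpy 2.4.6 and pandas 2.3.3 made the tables; matplotlib 3.10.9 drew the figures.

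Deviations from the group means of same-numbered libraries correlated at 0.507, 0.663 and 0.102 across genes. The main fit used no pairing, and a block by replicate number was run as an alternative. The labels put all 6 libraries in the same batch and tie no passage or day to a number. Crossed pairs also correlated above the replicate 3 pair: siNC 3 with siRBM8A 1 at 0.258 and siNC 1 with siRBM8A 3 at 0.187, so the pairing of replicates 1 and 3 is not distinct in these data. Blocked values are given where they change a member's call. Alternatives covered pseudocount, filter, scaling, variance trend, replicate block, voom on the fragments, protein-coding genes and leaving out each library. A GC correction (loess, span 0.3, on the longest transcript), with and without the block, voom with the block and leaving out both replicate 2 libraries were added after seeing the data.

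All 10 members are named, with RBM8A, and from each of the 6 lists up to 3 called genes or, with none called, the 1 with the smallest p. Members and lists were chosen with earlier results of these data known.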

Additional observations from a re-analysis of the deposited data

How the results depend on the processing

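The number of genes called, 709, depended on how the spread was modelled. It was 5096 with the replicate block, 4049 with the GC correction, 5155 with the GC correction and the block, 6145 with voom and the block, 1803 without both replicate 2 libraries and 268 without the filter. Leaving out 1 library gave 2 to 622. In the same order of settings, members called upward numbered 3, 3, 3, 5, 2 and 0, against 1, with 0 without the variance trend and 0 to 2 on leaving out 1 library. Members called downward stayed at 1, with 0 to 1 on leaving out 1 library. Further pathway genes called upward numbered 13, 11, 16, 16, 6 and 1, against 2, with 4 by voom and 0 to 1 on leaving out 1 library. Those called downward numbered 9, 9, 10, 9 and 2 under the first 5 settings, against 1, with 2 among protein-coding genes and 0 to 1 on leaving out 1 library. The RBM8A log2 fold change ran from -2.05 to -1.83 on leaving out 1 library, with the call lost without siNC replicate 3 (adjusted p = 0.0502) and without siRBM8A replicate 3 (0.0549).

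Signs turned only for uncalled members. With the GC correction, with or without the block, the log2 fold changes were -0.0171 for PSPH and -0.0341 for SHMT1. On leaving out 1 library they ran from -0.0854 to 0.154 for PSPH, from -0.0356 to 0.119 for SHMT1 and from -0.0260 to 0.229 for SHMT2. The cause was not tested. The 5 ratios moved by less than the replicate spread on leaving out any library. With 3 libraries a group, differences as small as those of SHMT2 and MTHFD1L were called by voom with the block alone (adjusted p = 0.0292 and 0.0407), that of SHMT1 by no alternative, and PHGDH and ALDH1L2 are limited by depth.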
